A study of Mus musculus with 25 samples.

Results

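This gene group holds 41 genes that neurons use for their cytoskeleton, their vesicles and their transmitters, read in mouse embryos with and without the miR-302 microRNAs. Its members were taken from a fixed list of symbols, and every probe of the array annotated with one of them was considered. The list was chosen with earlier results of these data known. Member counts set beside shares of all genes are therefore a description, not a test. All 41 had a probe, 62 probes in all, and 43 of these probes passed the detection filter (a detection p under 0.05 on at least 3 of the 25 arrays). The 43 probes measured 31 member genes, out of 10261 genes measured on the whole array. RNA was hybridised to Illumina bead arrays, 1 embryo sample to an array, and the design text describes the replicates as separate embryos. The miR-302 knockout (KO) groups comprised 3 whole embryos of embryonic day 7.5, written E7.5, and dissected anterior neural tissue from 3 E8.0, 3 E8.5 and 4 E9.5 embryos. Their wild-type (WT) counterparts were 2 whole E7.5 embryos and neural tissue from 2 E8.0, 3 E8.5 and 4 E9.5 embryos. WT replicate 1 of E8.0 carried the label of a whole embryo and was kept out of every comparison. All embryos were of strain B6, and the labels give no further allele, agent or sex.

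As background, newborn neurons leave the cell cycle, extend an axon and fill it with microtubules and neurofilaments, and they then build the machinery that packs transmitters and peptides into vesicles. Around neural tube closure most cells of the anterior neural plate are still dividing progenitors, so many genes of this kind, though not all, start low and appear with the first differentiating neurons. The miR-302 RNAs are abundant in pluripotent and early embryonic cells and disappear as tissues differentiate. They pair with target messengers through the seed, bases 2 to 8 counted from the 5′ end.

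The 3′ arm RNAs that the RefSeq table (GRCm38.p6) holds for the cluster are shown, with the seed in capitals, because the study deletes miR-302; the labels do not describe the allele. They lie on the plus strand of chromosome 3, at chr3:127545275-127545297 for miR-302b-3p, chr3:127545406-127545427 for miR-302c-3p and chr3:127545665-127545687 for miR-302d-3p.
mmu-miR-302b-3p: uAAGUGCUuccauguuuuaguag
mmu-miR-302d-3p: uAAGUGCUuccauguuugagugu
mmu-miR-302c-3p: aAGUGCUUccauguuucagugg
The RNAs b and d share the seed AAGUGCU, and the seed of miR-302c-3p is AGUGCUU. No array probe measures these RNAs, so the genotype labels had no check in these data.

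The deposited tables disagree on the 3 E8.0 WT arrays, and this touches every E8.0 WT value. In the raw table the signal column headed WT replicate 1 follows the detection p-values headed replicate 3, that headed replicate 2 follows those of replicate 1, and that headed replicate 3 follows those of replicate 2. Read against the detection column of its own header, 32.3% to 33% of neighbouring steps were out of order on these arrays, against 0% on the other 22. The authors' series matrix names the 3 arrays as the detection columns do. The signal headers were kept here, the E8.0 results of Gap43, Stmn3, Scg5 and Syt11 are also given with the names of the matrix, and which is right is unknown. On the array headed as a whole embryo, the 6 measured anterior neural markers (of 10 listed) averaged a log2 value of 8.44, above the 7.69 and 7.89 of the arrays headed as neural tissue. Other lists ran otherwise. Neural progenitor markers averaged 7.26 on that array, below the 7.58 and 7.64 of the arrays headed as neural tissue. Epiblast markers averaged 6.05 (against 5.42 and 5.69), primitive streak markers 5.96 (against 5.59 and 5.71) and trophoblast markers 8.25 (against 7.51 and 7.82). Arrays of 1 group correlated at 0.955 to 0.995, and 42.5% to 53% of probes were detected on an array. Erythroid markers averaged 9.73 to 12.6 in the dissected neural tissue and head mesenchyme markers 7.97 to 9.63, so the tissue held other cells as well.

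Detection set what could be read. Of the 14 cytoskeleton and axon growth genes 12 were measured, of the 11 vesicle and peptide genes 9, of the 4 transmitter genes 2, of the 4 genes of neuronal RNA binding, migration and protein turnover 4, and of the 8 transcription factors 4. The 10 that were not measured were the microtubule tip protein Mapre3, the light neurofilament Nefl, the release proteins Snap25 and Cplx2, the GABA-making enzymes Gad1 and Gad2, and the factors Nhlh1, Nhlh2, Onecut1 and St18. Each Gad1 probe was detected on 1 array and the other 9 genes on 0 arrays. Another 10 members were detected on all 25 arrays, among them the stathmin Stmn2, the dendritic microtubule protein Map2 and the factor Isl1, which early embryos also make outside neurons. Sst and Elavl4 were detected on all 8 E9.5 arrays and on 0 of the 17 earlier ones. Chga went the other way, detected on 0 E9.5 arrays and 8 earlier ones, as did Slc32a1 (1 and 14). Per array, 25 to 29 members were detected in E9.5 KO tissue and 24 to 27 in E9.5 WT tissue, while at E8.5 the count was 18 or 19 in KO and in WT tissue. The E9.5 counts are raised by selection, since 7 members passed the filter through E9.5 arrays. The floor also differed, with a lowest detected log2 value of 5.27 to 5.43 on E9.5 arrays and 5.66 to 5.84 on E8.5 arrays. Over all probes, 50.2% to 53% were detected at E9.5, against 45.1% to 47.1% at E8.5. The neuron-specific tubulin Tubb3, a standard marker of neurons, was detected on 9 arrays, with log2 values of 5.37 to 5.59 in E9.5 KO tissue and 5.22 to 5.70 in E9.5 WT tissue. By role, the transmitter genes and the transcription factors had the smallest measured share.

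The first comparison set KO against WT at each stage. Differences are log2 differences, KO minus WT, with their standard error (SE), and a call required an adjusted p below 0.05 from limma, adjusted over all 10261 genes.

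**Figure D1:**
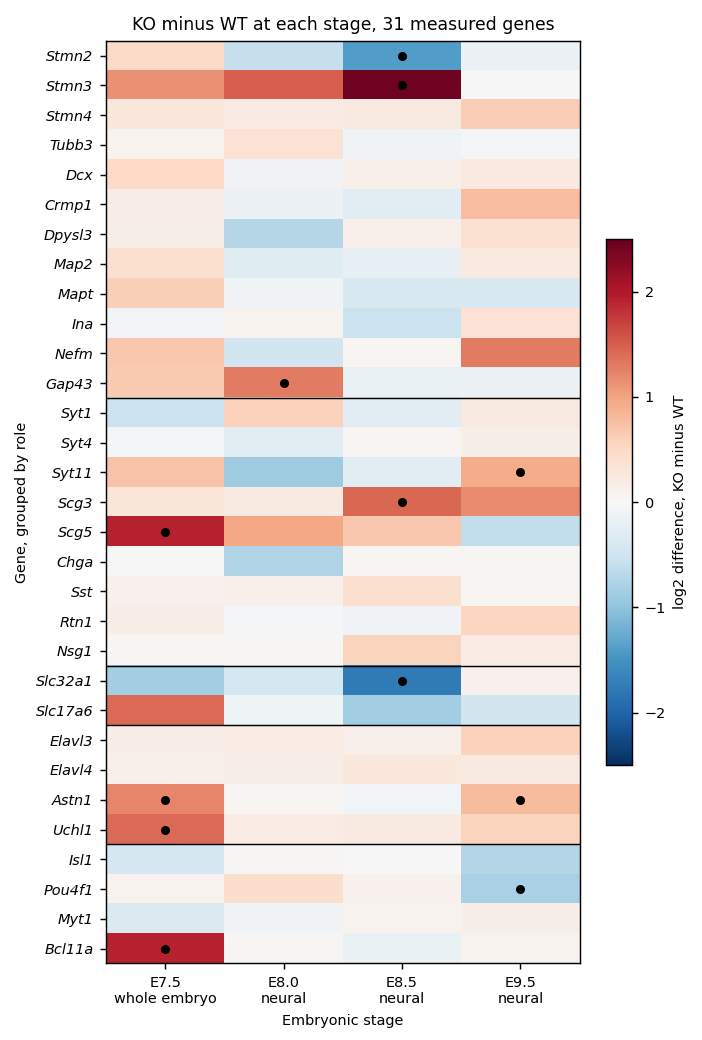
Log2 difference between KO and WT (colour, red higher in KO) for the 31 measured genes (rows, grouped by role from cytoskeleton at the top to transcription factors at the bottom) at 4 stages (columns); black dots mark an adjusted p under 0.05. Dots stand at 4 genes at E7.5, 1 at E8.0, 4 at E8.5 and 3 at E9.5, and Astn1 alone carries 2.

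In whole embryos at E7.5, 4 members were higher in the KO and 0 lower, with 0.224% of all genes called in either direction (18 higher, 0.175%, and 5 lower, 0.0487%). They were the transcription factor Bcl11a, the secretory chaperone Scg5, the neuronal deubiquitinase Uchl1 and Astn1, which acts in neuronal migration along glia. Bcl11a had log2 values of 6.91, 7.20 and 7.45 in KO embryos, against 4.75 and 5.78 in WT embryos, where it was not detected. The groups did not overlap, and Bcl11a was at least 2.74-fold higher in the KO (1.93, SE 0.256, adjusted p = 0.0023). Scg5 had 7.25, 6.70 and 6.26 in KO embryos, against 4.61 and 5.0, both undetected, in WT embryos. Every KO value lay above the WT values, and the gene was 2-fold higher at the least (1.93, SE 0.289, adjusted p = 0.00428). A low bulk signal does not tell fewer expressing cells from less RNA per cell, here or in the results that follow.

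Uchl1 had 9.45, 9.70 and 9.71 in E7.5 KO embryos, against 7.79 and 8.61 in WT embryos. It was detected in all 5 and did not overlap (2.68-fold higher, 1.42, SE 0.207, adjusted p = 0.00355). Astn1 had 8.62, 8.22 and 8.01 in KO embryos, against 6.79 and 7.31 in WT embryos, also without overlap (2.34-fold higher, 1.23, SE 0.243, adjusted p = 0.0356). The other 27 did not pass. Among them the glutamate transporter of vesicles Slc17a6 had 7.86, 7.07 and 6.40 in KO embryos, against 5.51 and 5.88 in WT embryos (1.41, SE 0.421, adjusted p = 0.277), and Stmn3 had 7.46, 7.18 and 6.97, against 5.53 and 6.60 (1.14, SE 0.385, adjusted p = 0.379). These values also stood apart by group, as 13 members did (20.4% of all genes), yet neither passed over all genes.

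Of the 31, 25 had positive E7.5 differences, with a median of 0.17 against 0.0014 over all genes, of which 50.3% were positive. Per array 18 or 19 members were detected in KO and 13 to 16 in WT embryos, so these counts include undetected members. Scg3 and Elavl4, for example, were undetected on every E7.5 array, yet their groups did not overlap. By role, 11 of 12 cytoskeleton genes were positive with a median of 0.44, and 0 passed. The call for Astn1 was lost without WT replicate 1 (adjusted p = 0.192), KO replicate 1 (0.129) or KO replicate 2 (0.101), and within plate 1 (0.129), while the other calls held without each array. With the E7.5 arrays fitted alone, 0 of 10261 genes passed (507 at an unadjusted p under 0.05) and each of the 4 members had an adjusted p of 0.759. Beside these differences, the 5 measured epiblast markers of 6 averaged 7.95 to 8.31 in KO embryos, against 7.56 to 7.58 in WT embryos, and 6 trophoblast markers of 7 averaged 7.11 to 8.48, against 6.78 to 6.90. The 6 measured neural crest and head mesenchyme markers were lower, at 6.75 to 7.04 in KO embryos, against 7.14 to 7.57 in WT embryos. Their part in the result was not tested.

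**Figure D2:**
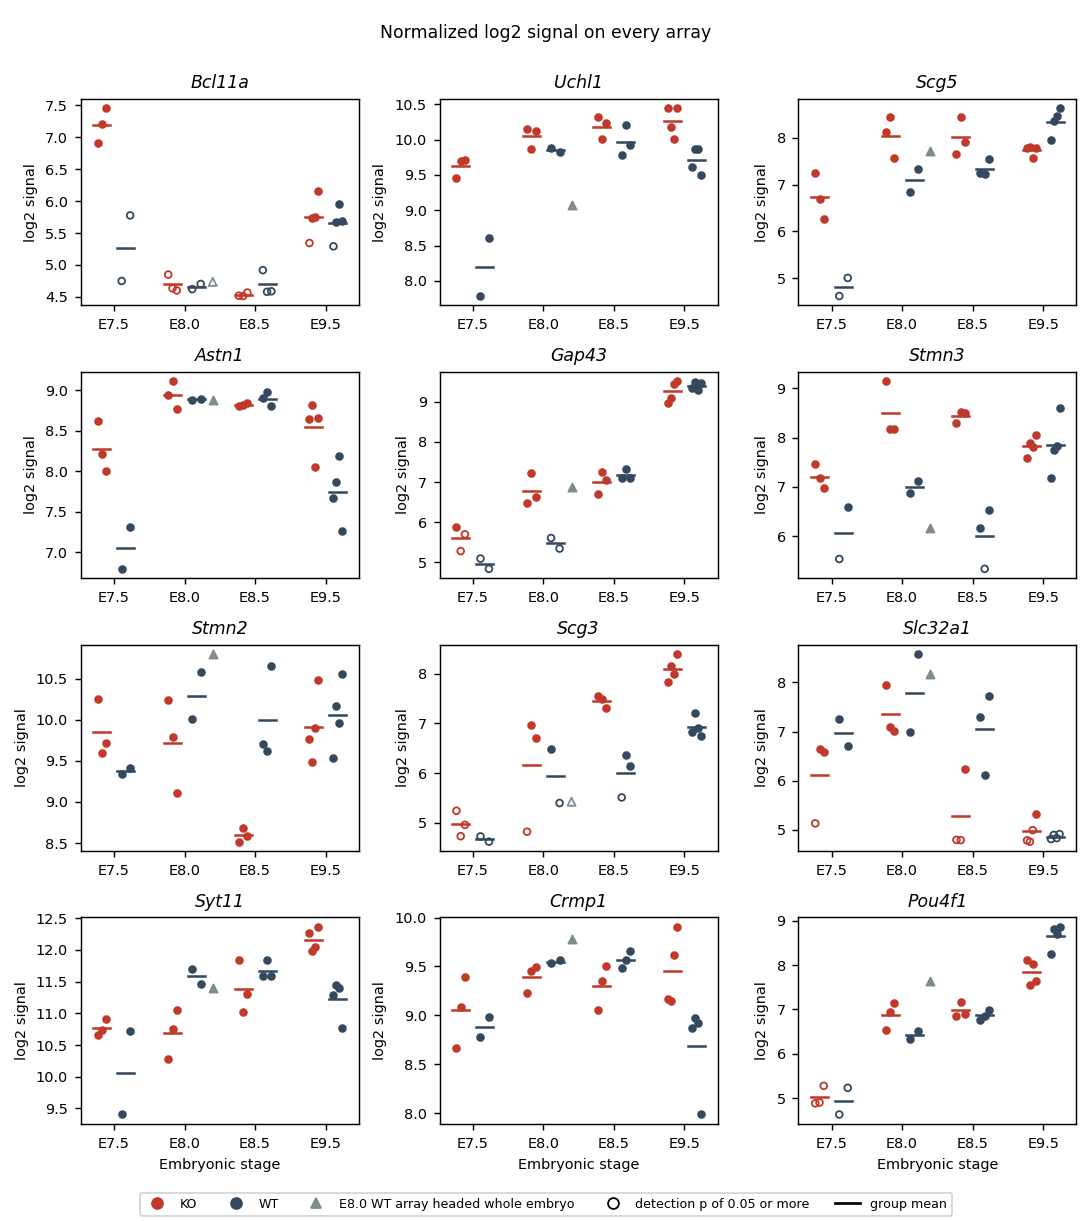
Normalized log2 signal (y axis) on every array for the 12 members that passed a KO comparison or the difference between KO effects, by stage (x axis), KO in red left of WT in dark blue; bars are group means, open circles are values with a detection p of 0.05 or more, and the triangle is the E8.0 WT array headed whole embryo. Stmn3 shows KO values of 8.29 to 8.52 above WT values of 5.33 to 6.52 at E8.5 and overlapping groups at E9.5.

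At E8.0, 1 member was higher in the KO neural tissue and 0 lower, with 1.68% of all genes called. Gap43, a membrane protein of growth cones, had log2 values of 6.48, 7.23 and 6.63 in KO tissue, against 5.61 and 5.35, both undetected, in WT tissue. All 3 KO values lay above both WT values, so that Gap43 stood at least 2.05-fold higher (1.30, SE 0.225, adjusted p = 0.0176). The array headed as a whole embryo held 6.89, inside the KO range. With the array names of the series matrix that array becomes one of the WT neural arrays, and the difference of Gap43 was then 0.67 with an adjusted p of 0.358.

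With those names 0 members passed at E8.0, and 0.156% of all genes did (16 genes, and 1426 at an unadjusted p under 0.05, where 9 members lay). Gap43 was also lost without WT replicate 2 (adjusted p = 0.0781) or WT replicate 3 (0.108), and with the E8.0 arrays fitted alone (0.405), where 0 of all genes passed. Without KO replicate 3 the count was 4, with Stmn3, Scg5 and the collapsin response protein Dpysl3 beside Gap43. Of the rest, Stmn3, a stathmin that binds tubulin, came nearest. It had 9.14, 8.17 and 8.18 in KO tissue, against 6.87 and 7.12 in WT tissue, without overlap (1.5, SE 0.385, adjusted p = 0.0522), and 1.86 with the names of the matrix (adjusted p = 0.0738). Scg5 had 8.12, 8.45 and 7.58 in KO tissue, against 6.84 and 7.34 in WT tissue, again without overlap (0.96, SE 0.289, adjusted p = 0.0862). With the names of the matrix its WT values were 7.72 and 7.34, which overlapped the KO values, and the difference was 0.52 (adjusted p = 0.423). Syt11, a relative of the synaptotagmins that sense calcium at synapses, ran the other way with 10.28, 10.75 and 11.05 in KO tissue, against 11.69 and 11.47 in WT tissue (-0.89, SE 0.307, adjusted p = 0.123), and with the names of the matrix it differed by -0.74 (adjusted p = 0.293).

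At E8.0, 17 of the 31 differences were positive, against 52.9% of all genes, and the groups of 8 members did not overlap, against 34.9% of all genes. With the names of the matrix 14 were positive and 13 did not overlap. The shares of all genes were not computed with those names, so these 2 counts have no background to be read against. The member median was 0.031, beside 0.025 over all genes. With the names of the matrix it was -0.037, beside 0.020 over all genes. The 5 measured epiblast markers averaged 5.60 to 7.54 in KO tissue, against 5.42 to 5.69 in WT tissue, and the highest value belonged to KO replicate 1, the only KO array on plate 2. Without that array Gap43 differed by 1.45 (adjusted p = 0.0193). Further lists stood apart by group on the arrays as headed. Trophoblast markers averaged 7.92 to 8.60 in KO tissue, against 7.51 to 7.82 in WT tissue, and primitive streak markers 5.91 to 6.14, against 5.59 to 5.71. The anterior neural markers averaged 7.31 to 7.67 in KO tissue, against 7.69 to 7.89 in WT tissue, and the neural progenitor markers 7.02 to 7.56, against 7.58 to 7.64. The part of these lists in the E8.0 results was not tested.

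**Figure D3:**
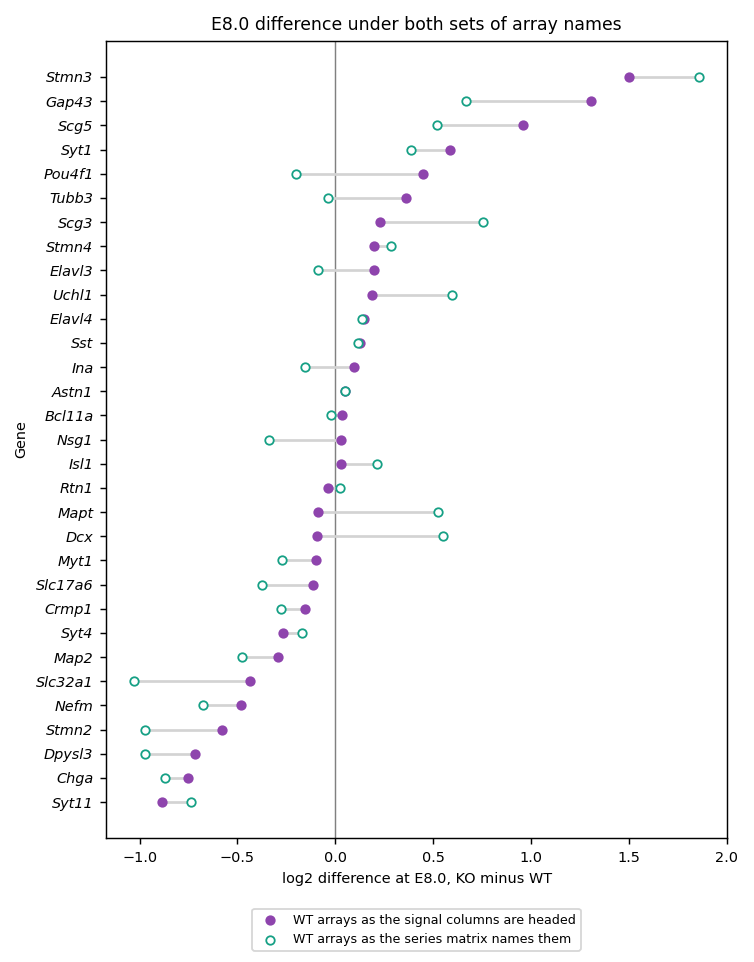
Log2 difference between KO and WT at E8.0 (x axis) for the 31 measured genes (y axis), with the WT arrays named as the signal columns are headed (filled) and as the series matrix names them (open). Gap43 moves to 0.67 with the names of the matrix, against 1.30 with the headers, while Stmn3 lies at 1.86 and 1.5.

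At E8.5, 2 members were higher and 2 lower in the KO, with 5.59% of all genes called (3.16% higher and 2.44% lower). The members' share of 4 in 31 stood beside that background. Stmn3 carried the largest E8.5 difference of the group. It had log2 values of 8.29, 8.52 and 8.5 in KO tissue, against 6.17, 5.33 and 6.52 in WT tissue, where replicate 2 was undetected. The groups lay far apart, at least 4.99-fold higher in the KO (2.43, SE 0.344, 95% interval 1.71 to 3.15, adjusted p = 0.00121). The granule protein Scg3 had 7.54, 7.49 and 7.31 in KO tissue, against 5.51, 6.37 and 6.14 in WT tissue, the lowest undetected. Its groups did not overlap either (at least 2.52-fold higher, 1.44, SE 0.389, adjusted p = 0.0362).

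Stmn2, the stathmin that labels growing axons, was lower at E8.5 although its relative Stmn3 was higher. It had 8.52, 8.68 and 8.59 in KO tissue, against 9.71, 9.62 and 10.65 in WT tissue, without overlap (2.63-fold lower, -1.40, SE 0.321, adjusted p = 0.0188). Slc32a1, which loads GABA and glycine into vesicles, had 4.79, 4.79 and 6.24 in KO tissue, against 7.29, 6.11 and 7.73 in WT tissue. KO replicates 1 and 2 were undetected, while KO replicate 3 lay above the lowest WT value, so the groups overlapped (at least 2.13-fold lower, -1.77, SE 0.479, adjusted p = 0.0364). The tubulin binder Stmn4, with 4.70, 5.06 and 4.90 in KO tissue and 4.65, 4.59 and 4.75 in WT tissue, was undetected on all 6 arrays. Slc17a6 was detected on 0 of the 3 KO arrays and on 2 of the 3 WT arrays (-0.86, SE 0.376, adjusted p = 0.172).

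Stmn3 held at E8.5 without each of the 6 arrays, in a fit that added plate (2.28, adjusted p = 0.0269) and within plate 2, which holds KO replicate 1 and all WT arrays (2.28, adjusted p = 0.0467). Both of these plate results rest on KO replicate 1 alone, since KO replicates 2 and 3 were on a plate of their own, with the spread taken from the other groups. The other calls were less firm. Scg3 passed without WT replicate 2 but was lost without any other array (adjusted p 0.0635 to 0.170). Slc32a1 was lost without WT replicate 1, WT replicate 3, KO replicate 1 or KO replicate 2 (0.0866 to 0.156), and Stmn2 without WT replicate 3 (0.0752), KO replicate 2 (0.0638) or KO replicate 3 (0.0511). All 3 were lost within plate 2, at -1.48 for Stmn2 (adjusted p = 0.180), 1.54 for Scg3 (0.257) and -2.25 for Slc32a1 (0.123), and in the fit that added plate (0.102 to 0.163). With the E8.5 arrays fitted alone, 0 of 10261 genes passed (2129 at an unadjusted p under 0.05), and Stmn3 had an adjusted p of 0.0732. The 6 measured anterior neural markers averaged 6.99 to 7.78 in KO tissue, against 8.02 to 8.26 in WT tissue. The 6 primitive streak markers averaged 5.67 to 5.78 in KO tissue, against 5.59 to 5.66 in WT tissue, and the part of both lists in these results was not tested. Of the 31 differences at E8.5, 16 were positive, against 47.1% of all genes, with a median of 0.041 against -0.025, and the groups of 8 members did not overlap, against 28.6% of all genes.

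At E9.5, 2 members were higher and 1 lower in the KO, with 2.23% of all genes called (1.55% higher and 0.682% lower). Syt11 had log2 values of 12.27, 11.98, 12.04 and 12.36 in KO tissue, against 11.29, 11.45, 11.40 and 10.77 in WT tissue. The 4 KO values lay above the WT values (1.91-fold higher, 0.93, SE 0.238, adjusted p = 0.0429). Other probes of Syt11 gave 0.88 and 0.48 at this stage and did not pass. Astn1 had 8.64, 8.82, 8.05 and 8.66 in KO tissue, against 7.67, 7.87, 8.19 and 7.26 in WT tissue. KO replicate 3 fell within the WT range (1.74-fold higher, 0.80, SE 0.188, adjusted p = 0.0303).

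Pou4f1, the POU factor of sensory and midbrain neurons, was the member that fell. It had 8.11, 7.56, 8.03 and 7.65 in KO tissue, against 8.25, 8.82, 8.69 and 8.86 in WT tissue. Without overlap, it was 1.76-fold lower (-0.81, SE 0.177, adjusted p = 0.0207). Isl1, the LIM factor of cranial sensory and motor neurons, had 10.32, 10.14, 10.17 and 10.50 in KO tissue, against 10.77, 10.96, 10.99 and 11.36 in WT tissue, also without overlap, and did not pass (-0.74, SE 0.28, adjusted p = 0.166).

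Several members came close on the higher side at E9.5. Crmp1, a collapsin response protein, had 9.17, 9.14, 9.61 and 9.90 in KO tissue, against 8.87, 8.97, 8.92 and 7.99 in WT tissue (0.77, SE 0.209, adjusted p = 0.0558). Scg3 had 7.84, 8.16, 8.0 and 8.4 in KO tissue, against 6.82, 7.20, 6.90 and 6.75 in WT tissue (1.18, SE 0.337, adjusted p = 0.0703). Uchl1 had 10.44, 10.17, 10.002 and 10.44, against 9.61, 9.87, 9.87 and 9.5 (0.55, SE 0.16, adjusted p = 0.0767). In all 3 genes every KO value exceeded every WT value. The used Stmn4 probe was detected on 4 arrays in all, the E9.5 KO arrays, and so passed the detection filter only through them; nothing is read from its difference. It had 5.45, 5.59, 5.88 and 5.97 in KO tissue, against 5.29, 4.96, 4.91 and 5.28, undetected, in WT tissue (0.61, SE 0.169, adjusted p = 0.0596). The second Stmn4 probe, detected on 3 arrays in all, gave 0.87 when every probe was tested (adjusted p = 0.00568). That is the fewest arrays the filter allows, so nothing is read from this probe either. In all, the groups of 9 members, Stmn4 included, did not overlap at E9.5, against 14.3% of all genes.

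Of the 31 members, 22 had positive E9.5 differences, with a median of 0.19 against -0.0016 over all genes, of which 49.7% were positive. The middle-size neurofilament Nefm had 8.63, 8.59, 9.57 and 10.26 in KO tissue, against 8.91, 8.14, 7.58 and 7.22 in WT tissue, a spread that overlapped (1.30, SE 0.468, adjusted p = 0.148). Sst, Gap43 and Elavl4, among the strongest E9.5 arrivals described next, differed little by genotype. Their differences were 0.06 (95% interval -0.25 to 0.37), -0.14 (-0.51 to 0.22) and 0.23 (-0.05 to 0.51).

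No E9.5 call survived all single omissions. Without WT replicate 2, WT replicate 4, KO replicate 2 or KO replicate 4 the count was 0, and without WT replicate 1 it was 5. Syt11 passed only without WT replicate 1, and its adjusted p lay between 0.0594 and 0.198 otherwise. Astn1 was lost without WT replicate 2 or 4 or KO replicate 1, 2 or 4 (0.0537 to 0.147), and Pou4f1 without WT replicate 2, 3 or 4 or KO replicate 2 or 4 (0.0576 to 0.0967). With the E9.5 arrays fitted alone 6 members passed, Syt11, Pou4f1, Isl1, Scg3, Scg5 and Stmn4, and Astn1 did not (0.0639). Over all 10261 genes the number called rose as well, to 438 in that fit from 229 in the fit of all arrays. Stmn4, counted there and among the 5 without WT replicate 1, passed the detection filter only through the E9.5 KO arrays. All E9.5 arrays were on plate 4. The 7 measured neural progenitor markers of 10, with Msi1, Pax6 and Sox3 not measured, averaged 9.06 to 9.34 in KO tissue, against 7.84 to 8.48 in WT tissue. The 5 erythroid markers averaged 12.02 to 12.34 in KO tissue, against 12.4 to 12.6 in WT tissue, and the 5 endothelium markers 7.87 to 8.31, against 8.35 to 8.51. The 6 trophoblast markers averaged 6.36 to 6.6 in KO tissue, against 6.61 to 6.73 in WT tissue. The part of these 4 lists in the E9.5 results was not tested.

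The second comparison followed neural tissue between stages within a genotype. Between E8.0 and E8.5 only 1 member passed in each genotype. In KO tissue 18 of the 31 steps were positive, against 47.1% of all genes, and in WT tissue 19, against 46.2%. With the names of the matrix 12 WT steps were positive, and the share of all genes was not computed with those names. The WT median was 0.067, and -0.064 with the names of the matrix. In KO tissue Slc32a1 fell at E8.5, with log2 values of 4.79, 4.79 and 6.24, against 7.95, 7.09 and 7.01 at E8.0, without overlap (at least 2.62-fold lower, -2.08, SE 0.479, adjusted p = 0.0211), where 3.23% of all genes were called (2.19% lower). That call was lost without E8.0 KO replicate 1, E8.5 KO replicate 1 or E8.5 KO replicate 2 (adjusted p 0.0587 to 0.109) and in the fit that added plate (-2.36, adjusted p = 0.0712), and 2 and 4 members passed without E8.0 KO replicate 2 and replicate 3. In WT tissue Gap43 rose at E8.5, with 7.10, 7.33 and 7.09 against 5.61 and 5.35, undetected, at E8.0 (at least 2.7-fold higher, 1.70, SE 0.225, adjusted p = 0.00367), where 0.039% of all genes were called. It was lost without E8.0 WT replicate 3 (adjusted p = 0.0559), and with the names of the matrix 0 genes passed in that WT step by limma (470 at an unadjusted p under 0.05).

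From E8.5 to E9.5 more members rose than fell in both genotypes. In KO tissue 18 members rose and 0 fell, with 34.1% of all genes called (15.5% higher and 18.6% lower). In WT tissue 18 rose and 3 fell, with 41.9% called (18.9% higher and 22.9% lower). The member medians were 0.83 in KO tissue and 0.85 in WT tissue, against -0.044 and -0.069 over all genes. Of the members, 7 (Stmn4, Syt1, Syt4, Sst, Nsg1, Elavl4 and Myt1) were detected on fewer than 3 arrays before E9.5, so they passed the detection filter through E9.5 arrays and had to lie higher there. Over the other 24, 13 rose and 0 fell in KO tissue (median 0.79), and 14 rose and 3 fell in WT tissue (median 0.87). These counts and medians are a description. Positive steps numbered 24 in KO tissue and 23 in WT tissue, against 46.8% and 45.3% of all genes. By role, 8 cytoskeleton genes rose in KO and 7 in WT tissue, 4 vesicle genes in each, 1 transmitter gene in each, 2 of the RNA-binding, migration and turnover genes in each, and 3 and 4 transcription factors. The rises common to both genotypes were 14, or 77.8% of each list. The counts of positive steps, by role and of common rises include members that passed the filter through E9.5 arrays.

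**Figure D4:**
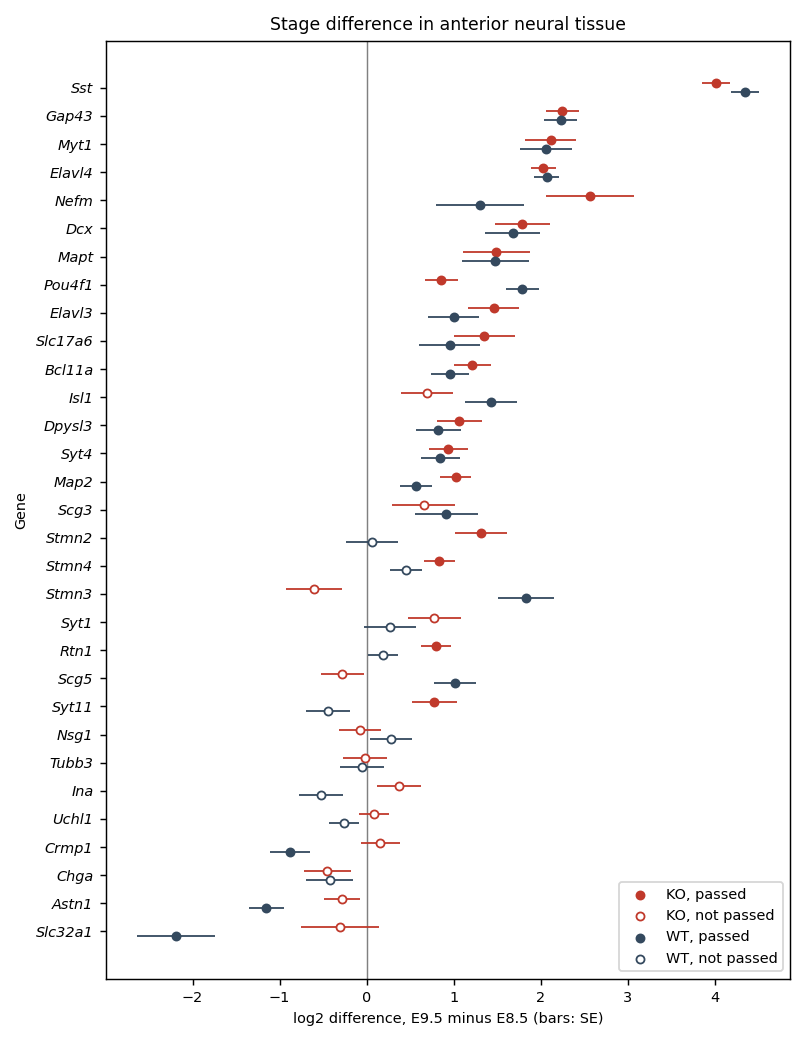
Log2 difference between E9.5 and E8.5 neural tissue (x axis, bars are SE) for the 31 measured genes (y axis), KO in red above WT in blue; filled points had an adjusted p under 0.05. Sst lies farthest right at 4.01 in KO and 4.35 in WT tissue, and Stmn3, Scg3, Scg5 and Isl1 on the right and Crmp1, Astn1 and Slc32a1 on the left are filled in WT only.

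The peptide gene Sst, which encodes somatostatin, rose most. In KO tissue its log2 values were 8.96, 8.84, 9.13 and 9.23 at E9.5, against 4.88, 5.45 and 4.74 at E8.5. In WT tissue they were 9.03, 9.16, 8.66 and 9.08 at E9.5, against 4.58, 4.71 and 4.61 at E8.5. The gene was undetected on every E8.5 array, so its rise was at least 9.7-fold in KO tissue (4.01, SE 0.16, adjusted p = 1.87e-12) and at least 9.45-fold in WT tissue (4.35, SE 0.16, adjusted p = 7.23e-13). Sst, and Elavl4 and Myt1 below, passed the detection filter through E9.5 arrays. The direction of their rises was thus set by the filter, and their p-values do not test it.

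Elavl4, an RNA-binding protein of young neurons, went the same way. It had 7.04, 7.22, 7.29 and 7.49 in E9.5 KO tissue and 6.95, 6.99, 7.13 and 7.07 in E9.5 WT tissue, and it was undetected on all 6 E8.5 arrays (4.85 to 5.51). The rise was at least 2.82-fold in KO tissue (2.03, adjusted p = 2.59e-08) and at least 2.45-fold in WT tissue (2.07, adjusted p = 8.37e-09). Another Elavl4 probe gave 0.49 and -0.10 and did not pass, so the probes disagree.

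Gap43 had 8.97, 9.10, 9.45 and 9.51 in E9.5 KO tissue, against 6.71, 7.26 and 7.06 at E8.5, a 4.75-fold rise (2.25, SE 0.188, adjusted p = 3e-07). In WT tissue it had 9.34, 9.5, 9.29 and 9.48 at E9.5, against 7.10, 7.33 and 7.09 at E8.5, a 4.68-fold rise (2.23, SE 0.188, adjusted p = 6.75e-08). The zinc finger factor Myt1 had 7.02, 6.41, 7.58 and 7.89 in E9.5 KO tissue, against 5.82, 4.61 and 4.91 at E8.5 (at least 2.74-fold, 2.11, adjusted p = 3.19e-05). In WT tissue Myt1 was undetected at E8.5 and lay at 6.84 to 7.4 at E9.5 (at least 2.54-fold, 2.06, adjusted p = 1.84e-05). In each case all E9.5 values exceeded all E8.5 values.

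Among the other cytoskeleton genes, Dcx, which binds microtubules in migrating neurons, rose at least 3.07-fold in KO tissue (1.79) and 2.73-fold in WT tissue (1.68). Tau, encoded by Mapt, rose at least 2.11-fold in KO tissue (1.49) and 2.37-fold in WT tissue (1.48). For Dcx another probe also passed (1.78 in KO and 1.36 in WT tissue), whereas other Mapt probes gave 0.24 and -0.58 in KO tissue and 0.00 and -0.14 in WT tissue and did not. Nefm rose 5.93-fold in KO tissue (2.57, SE 0.506, adjusted p = 0.000731) and 2.47-fold in WT tissue (1.31, SE 0.506, adjusted p = 0.0444). Both Stmn3 (at least 3.3-fold, 1.83) and Pou4f1 (3.45-fold, 1.79) were among the 8 largest WT rises, while the KO values were -0.60 for Stmn3, which did not pass, and 0.86 for Pou4f1, which did. The RNA-binding gene Elavl3 was at least 2.45-fold higher at E9.5 in KO tissue (1.46) and 1.76-fold in WT tissue (1.00).

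Stmn4 (KO only), Syt4 and Bcl11a also passed, but they were undetected at E8.5 and their E9.5 levels did not clear the E8.5 detection floor, so no fold is given. At E9.5 Bcl11a lay at 5.34 to 6.16 in KO tissue and 5.29 to 5.96 in WT tissue, below its 6.91 to 7.45 in E7.5 KO embryos.

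The passes that the genotypes did not have in common were Stmn2, Stmn4, Syt11 and Rtn1 in KO tissue and Stmn3, Scg3, Scg5 and Isl1 in WT tissue. Of these 8, the genotypes' steps differed by test in Stmn3, Scg5 and Syt11 alone, the values of which follow with the KO differences. The 3 WT falls were Slc32a1, with 4.81, 4.89, 4.83 and 4.91, all undetected, at E9.5, against 7.29, 6.11 and 7.73 at E8.5 (at least 3.13-fold lower, -2.19, adjusted p = 0.000601), Astn1 (2.22-fold lower, -1.15) and Crmp1 (1.84-fold lower, -0.88). Stage and plate cannot be told apart here, since every E9.5 array was on plate 4 and no earlier one was. On these arrays 50.2% to 53% of probes were detected, against 42.5% to 47.5% at the earlier stages. Some lists of other cell types also stood higher at E9.5, and others did not. Endothelium markers averaged 7.87 to 8.31 in KO and 8.35 to 8.51 in WT tissue at E9.5, against 6.31 to 7.10 in KO and 6.30 to 7.30 in WT tissue at E8.5. Neural crest and head mesenchyme markers averaged 9.0 to 9.5 in KO and 9.47 to 9.63 in WT tissue at E9.5, against 8.31 to 8.4 in KO and 7.97 to 8.51 in WT tissue at E8.5. Erythroid markers averaged 12.02 to 12.34 in KO and 12.4 to 12.6 in WT tissue at E9.5, against 10.8 to 11.4 in KO and 9.73 to 11.5 in WT tissue at E8.5. The 4 measured markers of cranial placodes and sensory ganglia averaged 5.81 to 6.08 in KO and 5.99 to 6.10 in WT tissue at E9.5, against 5.43 to 5.67 in KO and 5.4 to 5.78 in WT tissue at E8.5. At E9.5 the anterior neural markers averaged 6.64 to 7.22 in KO and 6.70 to 7.15 in WT tissue. At E8.5 they had averaged 6.99 to 7.78 in KO and 8.02 to 8.26 in WT tissue. The neural progenitor markers averaged 9.06 to 9.34 in KO and 7.84 to 8.48 in WT tissue at E9.5. Their E8.5 averages were 7.55 to 7.98 in KO and 7.73 to 7.89 in WT tissue. The part of all these lists in the steps was not tested.

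The third comparison tested whether the KO difference itself changed between stages. From E8.0 to E8.5, 0 members passed (1 at an unadjusted p under 0.05), with 0.127% of all genes called (0.0487% higher and 0.078% lower). Of the 31 changes 15 were positive, against 47% of all genes. Gap43 lay nearest (-1.47, SE 0.302, adjusted p = 0.0597), and with the names of the matrix 0 members passed as well. From E8.5 to E9.5, 5 members passed, 2 higher and 3 lower, with 10.1% of all genes called (4.33% higher and 5.77% lower). Of the 31 changes 22 were positive, against 53.1% of all genes.

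Stmn3 changed most. Its KO minus WT difference was -0.01 at E9.5 (95% interval -0.63 to 0.62), against 2.43 at E8.5, a change of -2.44 (SE 0.455, adjusted p = 0.00553). At E9.5 Stmn3 had 7.59, 7.90, 7.81 and 8.06 in KO tissue, against 7.19, 7.74, 7.83 and 8.60 in WT tissue, with overlap. This result passed under all 22 alternatives run for it, each single omission included, with changes of -2.69 to -1.36. Settings with plate and the authors' matrix values were not among them, so how the change depends on either was not examined.

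Scg5 had 7.79, 7.80, 7.56 and 7.78 in E9.5 KO tissue, against 7.95, 8.36, 8.46 and 8.63 in WT tissue. At E8.5 its order was the other way, with 7.66, 8.45 and 7.92 in KO tissue, against 7.25, 7.22 and 7.54 in WT tissue. The groups did not overlap at either stage, and the difference changed by -1.29 (SE 0.342, adjusted p = 0.0244). The differences behind it, -0.62 at E9.5 and 0.67 at E8.5, did not pass on their own. With the E8.0 arrays as headed, Scg5 was higher in the KO without overlap at E7.5, E8.0 and E8.5 and lower at E9.5, and it passed in the KO comparison at E7.5 alone.

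Pou4f1 changed by -0.93 (SE 0.27, adjusted p = 0.0363). At E8.5 it had 6.85, 7.18 and 6.91 in KO tissue, against 6.75, 6.85 and 6.99 in WT tissue, with overlap. Syt11 changed by 1.22 (SE 0.363, adjusted p = 0.0405). It had 11.84, 11.01 and 11.31 in E8.5 KO tissue, against 11.59, 11.83 and 11.60 in WT tissue, also with overlap. Of the other Syt11 probes, 1 passed at 1.78 (adjusted p = 0.0344) and 1 did not at 0.18. Crmp1 changed by 1.04 (SE 0.319, adjusted p = 0.0456), and its other probe passed at 1.02 (adjusted p = 0.0301). At E8.5 Crmp1 had 9.05, 9.35 and 9.5 in KO tissue, against 9.48, 9.57 and 9.65 in WT tissue.

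These 4 calls were less firm than that of Stmn3. Scg5 was lost without E8.5 WT replicate 1 or 2, E8.5 KO replicate 2 or E9.5 WT replicate 4 (adjusted p 0.0513 to 0.077), and the other 3 were lost under 10 to 14 of 22 alternatives (highest adjusted p 0.0938 to 0.11). The count was 1 without E8.5 WT replicate 1, E8.5 KO replicate 2 or E9.5 WT replicate 4, and 2 or 3 without E8.5 WT replicate 2 or 3, E8.5 KO replicate 3, E9.5 WT replicate 3 or E9.5 KO replicate 4. The E8.5 and E9.5 contrasts share no arrays, and plate changes with stage.

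For context, a further list of 80 neuronal genes held 46 measured ones. At E7.5, 1 rose and 0 fell (0.224% of all genes called), the vesicle protein Syp (0.79, adjusted p = 0.0356). At E8.0, 1 rose and 0 fell (1.68% called), the factor Ebf1 (1.03, adjusted p = 0.0403). At E8.5, 4 rose and 1 fell (5.59% called), led by the RNA-binding gene Elavl2 (1.17, adjusted p = 0.00389), the vesicle fusion ATPase Nsf, which fell (-0.65, adjusted p = 0.00434), and the proneural factor Neurog2 (1.52, adjusted p = 0.00533). At E9.5, 3 rose and 0 fell (2.23% called), Neurog2 (1.44, adjusted p = 0.00353), the synapsin Syn1 (1.09, adjusted p = 0.00709) and Phox2a, a factor of cranial motor and noradrenergic neurons (1.58, adjusted p = 0.0113). In the step to E9.5, 15 of the 46 rose and 6 fell in KO tissue (median 0.44), and 17 rose and 10 fell in WT tissue (median 0.13). Over all genes, 15.5% were called higher and 18.6% lower in KO tissue, and 18.9% and 22.9% in WT tissue.

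Promoters were read for the 2 members whose values stood out, Stmn3 for its E8.5 difference and Sst for its rise at E9.5. RefSeq (GRCm38.p6) gave 34 promoters for 23 of the 31 measured members, each 250 bases before to 50 after a start site. Stmn3 lies at chr2:181314451-181314750 and Sst at chr16:23890795-23891094, both on the minus strand and printed 5′ to 3′ of the gene. Capitals mark an E-box read as CAGATG, the reverse strand of CATCTG, whose first base is at -75 from the start of Stmn3, and the cAMP response element TGACGTCA at -48 of Sst.
Stmn3: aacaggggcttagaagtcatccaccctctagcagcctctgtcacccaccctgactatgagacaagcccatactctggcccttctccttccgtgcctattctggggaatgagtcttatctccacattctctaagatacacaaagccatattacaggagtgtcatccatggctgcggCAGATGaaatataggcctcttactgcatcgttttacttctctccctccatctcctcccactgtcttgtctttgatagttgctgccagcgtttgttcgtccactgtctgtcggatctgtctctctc
Sst: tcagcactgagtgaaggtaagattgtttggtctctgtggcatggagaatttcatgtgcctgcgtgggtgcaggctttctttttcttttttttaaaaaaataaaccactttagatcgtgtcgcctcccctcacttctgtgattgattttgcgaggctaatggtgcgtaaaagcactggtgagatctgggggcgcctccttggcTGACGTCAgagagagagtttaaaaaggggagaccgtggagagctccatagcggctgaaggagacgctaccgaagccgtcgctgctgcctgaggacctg
The motif TGACGTCA stood in 1 of the 34 member promoters (2.94%), against 1.79% of all 32851 promoters of the table. The E-box CATCTG, sought on both strands, stood in 6 member promoters (17.6%), those of Elavl4, Rtn1, Slc17a6 and Stmn3, against 17.2% of all. The E-box CAGCTG stood in 9 member promoters (26.5%), against 16.3% of all. The motifs do not overlap each other, and a match describes letters only.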

How the data were processed

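Per the file headers, the authors' non-normalized table gives each of 25 arrays (Illumina MouseRef-8 v2.0) a bead intensity and a detection p-value for 25697 probes. The intensity values are linear, and the authors' deposited series matrix, used as an alternative on a log2 scale, holds processed ones. The sources used here do not give the tools behind either. RNA was taken with Trizol, cleaned with DNase treatment and labelled as biotinylated cRNA, per the labels' protocols.

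The deposited intensity was corrected by normexp on the detection p-values (offset 16), quantile normalized and log2 transformed in limma 3.58.1 under R 4.3.3. For the E8.0 WT arrays each signal was paired with the detection column it follows. Probes with a detection p under 0.05 on at least 3 arrays were kept (15030). Platform symbols named 23978 probes, 1719 had none, and the brightest kept probe stood for a gene. All arrays entered 1 model of 9 groups (lmFit and eBayes, 16 residual degrees of freedom, 19.2 with the prior). Tests were two-sided and adjusted by Benjamini-Hochberg within a contrast over 10261 genes; every adjusted p is from limma. A fold is a bound ("at least") where any array of the lower group was undetected. There each undetected array enters with its own value or, if higher, with the lowest signal of any detected probe. The number of arrays limits the precision.

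The members and lists were chosen with earlier results of these data known. The text names each member that passed a KO contrast or the difference of KO contrasts, the 8 largest rises and 4 largest falls per genotype between stages, and at most the 3 lowest p-values per KO contrast from further lists. Other members given with values were picked after their values were seen. Same-numbered KO and WT arrays did not deviate together (correlations -0.133 to 0.159), and the numbers were not used as pairs. With groups of 2 to 4 arrays, these correlations cannot exclude a pairing. The limma steps were tested on simulated data.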

Additional observations from a re-analysis of the deposited data

Results flagged for a closer look

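On single arrays, 2 values stood apart from the rest of their group of 4. Crmp1 on E9.5 WT replicate 4 was at 7.99, against 8.87 to 8.97 on the other WT arrays, a gap of 0.899 of the group's whole range. Scg5 on E9.5 KO replicate 3 was at 7.56, against 7.78 to 7.80 on the other KO arrays, a gap of 0.918 of the range. Of 62 groups tested, chance alone marks about 1 in 20.

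The KO difference changed between E8.5 and E9.5 in 5 members by the test of the change itself, at -2.44 for Stmn3, -1.29 for Scg5, -0.93 for Pou4f1, 1.22 for Syt11 and 1.04 for Crmp1, all on the log2 scale with E9.5 minus E8.5.

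On the E8.0 WT array headed as a whole embryo, which entered no comparison, Tubb3 (log2 value 5.89) and Gap43 (6.89) were detected, while both were undetected on the arrays headed as E8.0 WT neural tissue (Tubb3 at 4.98 to 5.09, Gap43 at 5.35 to 5.61). The conflict over the names of these arrays applies to both values.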

How the results depend on the processing

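Alternatives were computed for named results that had passed, and 0 changed direction. The 19 of them that are steps from E8.5 to E9.5 kept their side of the threshold in all 285 values. These include the steps of Sst, Elavl4 and Myt1, whose direction was set by the detection filter, so their values do not test it. The other 19 kept it in 235 of 357 values and missed it in 122. Settings with plate and the authors' matrix values were not run for the steps from E8.5 to E9.5. They were run for part of the other results, so these shares are not like for like. The 8 largest rises from E8.5 to E9.5 in each genotype, those 3 genes included, and the 3 WT falls passed in all 15 alternatives run for each. What follows gives the number of members passing wherever it moved by over 1.5 times, and medians that moved by more than the replicate spread; the cause was not tested.

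With an offset of 50, 2 members passed at E8.0, 5 at E9.5 and 2 between E8.0 and E8.5 in KO tissue. Without background correction 2 passed at E7.5, 2 at E8.0, 7 at E9.5, 2 between E8.0 and E8.5 in KO tissue and 0 in WT tissue. Log2 differences were also smaller there, 0.76 for Scg5 and 0.77 for Astn1 at E7.5. Without the detection filter (16593 genes) 3 passed for the change of the KO difference from E8.5 to E9.5. With a stricter one (8774 genes, 25 members) 2 passed at E8.0, and the E7.5 median was 0.40. With the stages compared fitted alone, 0 passed at E7.5, 0 at E8.0, 0 at E8.5, 6 at E9.5, 0 between E8.0 and E8.5 in KO tissue and 0 in WT tissue. At E9.5 the genes called over the whole array numbered 438 in that fit, against 229 in the main one. With the array names of the series matrix 0 passed at E8.0 (median -0.037) and 0 between E8.0 and E8.5 in WT tissue. With detection p-values taken as headed, an alternative chosen after seeing the data, 2 passed at E8.0. With the array headed as a whole embryo added to the E8.0 WT group, Gap43 was lost at E8.0 (0.83, adjusted p = 0.143), where Stmn3 passed instead, and 0 passed between E8.0 and E8.5 in WT tissue. With plate as a term 1 passed at E8.5 and 4 between E8.0 and E8.5 in KO tissue (Isl1, Slc17a6, Stmn2 and Syt11, with Slc32a1 lost at an adjusted p of 0.0712), with plate as a random block 2 at E8.5, and within plate 2 there was 1 at E8.5. With the authors' matrix values 2 passed at E7.5 (median 0.10), 0 at E8.0 (median -0.020), 9 at E9.5 and 0 between E8.0 and E8.5 in WT tissue. On those values Stmn3 at E8.5 was 0.92, Bcl11a at E7.5 0.47 and Gap43 at E8.0 0.14. The matrix values carry the matrix's own names for the E8.0 WT arrays. Results with E8.0 WT tissue therefore changed in array names as well as in values, and the 2 changes cannot be told apart there.

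Whether the replicate numbers pair embryos is unknown, and the main fit did not use them. With the replicate block 1 member passed at E7.5, 0 at E8.0 (median -0.044), 1 at E9.5 and 1 for the change of the KO difference from E8.5 to E9.5.

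Leaving out 1 array at a time gave 3 to 4 members at E7.5, 0 to 4 at E8.0, 1 to 4 at E8.5 and 0 to 5 at E9.5. The steps gave 0 to 4 (KO) and 0 to 1 (WT) between E8.0 and E8.5, and 17 to 19 (KO) and 16 to 20 (WT) between E8.5 and E9.5. The change of the KO difference gave 1 to 5 members from E8.5 to E9.5. The medians lay between 0.14 and 0.28 at E7.5, -0.044 and 0.074 at E8.0, -0.058 and 0.066 at E8.5, and 0.10 and 0.26 at E9.5. With 2 WT arrays at E7.5 and E8.0, leaving out 1 assumes that the lone array varies like the other groups. Genes near background, with 4 members detected on fewer than 8 arrays, are those whose differences the signal limits most.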
